A study of Homo sapiens with 16 samples.

Results

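The mitogen-activated protein kinase (MAPK) pathway is held in check by proteins that its own activity induces, and 8 genes for such feedback inhibitors were followed here: the phosphatases DUSP1, DUSP4, DUSP5 and DUSP6, the Sprouty proteins SPRY2 and SPRY4, and the Sprouty-related proteins SPRED1 and SPRED2. The members were these 8 of 13131 genes with a called base, and every called base on the known strand inside a gene's hg38 span was taken as its own. In all, 585 of 452349 called bases fell in them. N6-methyladenosine (m6A), a methyl mark placed on messenger RNA mostly by the METTL3 and METTL14 enzyme complex, was mapped by m6A-eCLIP, which crosslinks an antibody against the mark to fragmented polyA RNA and reads the base it held from the sequence.

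Untreated parental, untreated resistant and inhibitor-treated resistant cells of an established human glioma line were compared. U87 MG (here U87) is the parental line and was labelled a DMSO control. U87-R is the derivative resistant to temozolomide, an alkylating drug, was kept in medium with 50 µM temozolomide and was also labelled a DMSO control. In the remaining group U87-R, in the same medium, was given 50 µM STM2457, an inhibitor of METTL3, for 96 hours. Each line had 3 libraries and the treated cells, called STM2457 below, had 2. The labels do not say whether the replicates are separate cultures or whether U87-R is a single clone, so the p-values below measure only the spread between these libraries.

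Growth factor receptors activate RAS, which starts a chain of kinases that ends in ERK. The DUSP phosphatases remove the phosphates that activate MAP kinases, while Sprouty and SPRED proteins act upstream, where they limit the activation of RAS or of the kinases it recruits. Their messages are induced quickly when the pathway is on, and many of them are short-lived. m6A is known to mark many such messages for faster decay.

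A library consisted of the bases called in it, each scored by the authors' pipeline. The untreated libraries held 149477 to 192697 of them and the STM2457 libraries 105900 and 110875. The files hold no read counts, so the depth is unknown. A score can rise with both the methylation and the amount of an RNA. The 8 input libraries were not analysed here, so in these bulk samples fewer methylated molecules and less RNA cannot be told apart. A base that is not listed was not called, which is not a measured 0. Of 9 glioma markers 6 had a called base in every library (among them VIM, CD44 and EGFR), while GFAP and SOX2 were given none. The remaining one, FN1, had sums of 0, 0 and 41.4 in U87 and 70.2, 35.7 and 38.4 in U87-R. It was higher with STM2457, at 331 and 234, whereas VIM, CD44 and EGFR were lower. Markers of other cell types were mostly without a base (among them PTPRC, CD3E, EPCAM, KRT5, CDH1, CDH5, VWF and SNAP25). CD68 had a summed score of 157 to 403, PECAM1 had at most 49.1, and the 3 neuronal markers together had 0 to 13.8 in the untreated and 34.8 to 37.3 in the STM2457 libraries. The part of these markers in the results was not tested.

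All 8 genes fell with STM2457, and in each of them both STM2457 libraries lay below all 3 U87-R libraries. That order held in 49.8% of all tested genes, and in 86.8% of those with a U87-R mean at least that of the lowest member. The level of a gene was its summed score, the sum of the scores of its bases in a library. Changes are differences in log2(sum + 1) from limma, with Benjamini-Hochberg adjustment over 10578 genes. The median change of the 8 was -1.46. Of all tested genes 38.2% were called lower and the median change was -0.69. Of the 1435 genes whose U87-R mean was at least that of the lowest member, 78.0% were called lower, with a median change of -0.95, so a called fall was common among genes with sums as high as these. The size of the fall differed among members: SPRY4, DUSP4, DUSP1 and DUSP5 fell by 1.66 or more on the log2 scale and SPRY2 by 1.27, whereas DUSP6, SPRED1 and SPRED2 differed from the median of all genes by -0.01, -0.06 and -0.04. When libraries were centred on their medians or scaled to their totals, those last 3 were no longer called and 5 of 8 were.

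**Figure D1:**
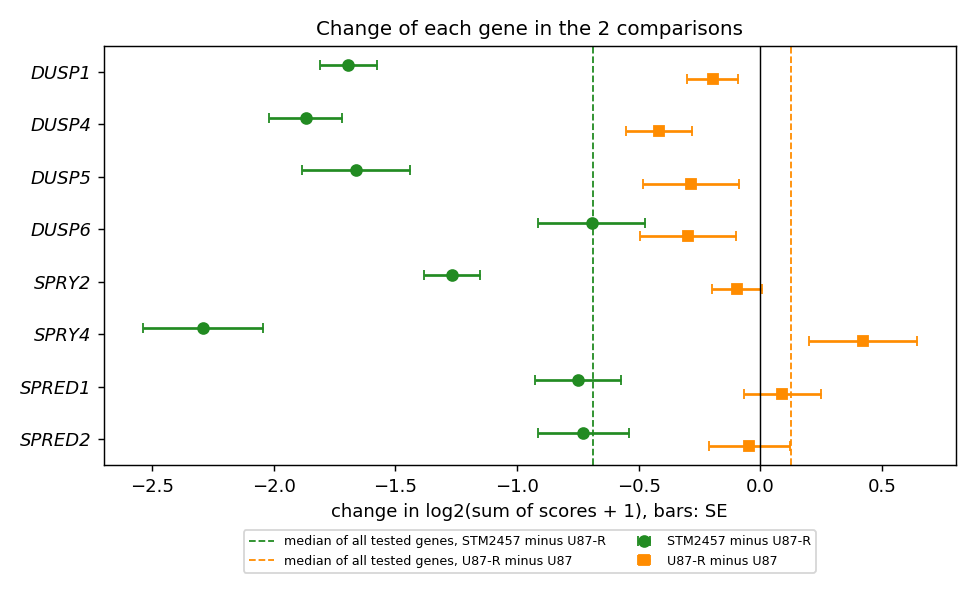
Change of each of the 8 genes on the log2(sum of scores + 1) scale, STM2457 minus U87-R (circles) and U87-R minus U87 (squares), with bars for the SE from limma and dashed lines for the median of all tested genes. DUSP6, SPRED1 and SPRED2 sit at or near the dashed line at -0.69, and the other 5 lie to its left.

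DUSP1, a nuclear phosphatase that acts on p38, JNK and ERK, is on chromosome 5 at 172768096 to 172771195 (hg38, minus strand). Summed per library, its scores came to 1884, 2054 and 1845 in the U87 libraries, 1575, 1776 and 1698 in U87-R, against 531 and 507 with STM2457. The STM2457 libraries were low by a wide margin, and U87-R lay below U87 without overlap. The mean was 1928 ± 111 (SD, n = 3) in U87, 1683 ± 102 (SD, n = 3) in U87-R and 519 ± 17.0 (SD, n = 2) with STM2457. With STM2457 it changed by -1.69 ± 0.12 (SE; limma adjusted p = 4.22e-05). Between the lines the change was -0.20 and did not pass (limma adjusted p = 0.495).

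Its highest scores lay in 2 stretches, one 191 to 345 nt and one 2381 to 2629 nt from the annotated 5′ end, counted along the genome with introns included, and lower ones lay between and outside them. Close neighbours differed in what became of them. The base at 172768763 scored 114, 132 and 120 in U87-R against 131 and 127 with STM2457. The base at 172768792, picked after its values were seen, scored 97.0, 114 and 103 against 107 and 107. Both lie above 44.9, the highest combined score of a DUSP1 site in the authors' deposited STM2457 list of reproducible sites. These are called bases, and whether that list holds them was not analysed here. Beyond these bases, the one with the highest U87-R mean, 172768723, went from 134 ± 9.69 (SD, n = 3) to 33.1 ± 13.6 (SD, n = 2). Its change was -2.04 ± 0.22 on the log2(score + 1) scale (SE; limma adjusted p = 0.000589). The base at 172768691 went from 128 ± 8.41 to 49.0 ± 27.8 (limma adjusted p = 0.00945). Farther on, 172768582 scored 86.7, 100 and 91.0 in U87-R and was called in neither STM2457 library (limma adjusted p = 6.44e-06). The same held for 172768566, at 80.8, 89.2 and 84.1 in U87-R (limma adjusted p = 7.33e-06). For bases not called with STM2457, here and below, the fit used 0, so the p depends on that filled-in value. Such bases entered the test only through calls in untreated libraries, so their p-values are no separate support for a loss. Over the second stretch the STM2457 scores thus ran from within the U87-R range to not called.

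DUSP4 encodes another nuclear phosphatase of ERK and JNK and lies on chromosome 8 at 29333064 to 29350684 (minus strand). The summed score of DUSP4 was 982, 908 and 1128 in U87, 836, 680 and 743 in U87-R, against 207 and 203 with STM2457. All 3 groups were separate, in the order U87, U87-R, STM2457. Its change with STM2457 was -1.87 ± 0.15 (SE; limma adjusted p = 6.85e-05). Between the lines the change was -0.42 ± 0.13, with a limma adjusted p of 0.244 that did not pass.

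Among the strongest DUSP4 bases, 29336862 went from 90.9 ± 9.50 (SD, n = 3) in U87-R to 37.2 ± 13.7 (SD, n = 2) with STM2457 (limma adjusted p = 0.0039). The neighbour at 29336833 scored 90.9, 66.1 and 95.5 in U87-R and was listed in neither STM2457 library (limma adjusted p = 3.58e-05). The base at 29336948 scored 78.0, 96.3 and 90.9 against 74.8 and 47.3, a difference that did not pass (limma adjusted p = 0.0812). A close pair, 29338367 and 29338357 (12317 and 12327 nt from the 5′ end), scored 50.1 to 65.2 in U87-R and was not called with STM2457 (limma adjusted p = 2.44e-05 and 2.61e-05). One base 208 nt from the 5′ end, 29350476, was chosen after its values were seen. It scored 18.7, 18.0 and 18.1 in U87 and 0, 1.17 and 0 in U87-R, where 0 means not called. It had the smallest adjusted p of any member base between the lines, 0.112 (limma), which did not pass.

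DUSP5, a nuclear phosphatase specific for ERK, is on chromosome 10 at 110497907 to 110511533 (plus strand). In DUSP5 the summed score was 1598, 1577 and 1762 in U87, 1711, 957 and 1496 in U87-R, against 424 and 428 with STM2457. The lines overlapped, U87-R replicate 2 was the low one, and the STM2457 libraries were below every other. The change with STM2457 was -1.66 ± 0.22 (SE; limma adjusted p = 0.00051), and between the lines it was -0.29 (limma adjusted p = 0.625), or -0.04 without U87-R replicate 2 and -0.46 without U87-R replicate 1.

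The highest DUSP5 base, 110510610, scored 128, 139 and 121 in U87-R against 118 and 127 with STM2457, so the groups overlapped (limma adjusted p = 0.547). The base beside it, 110510609, scored 135, 100 and 133 in U87-R and fell to 67.3 and 83.6, with a limma adjusted p of 0.0149 (0.0568 with replicate numbers as a block). At 110510578 it scored 118, 132 and 118 against 41.3 and 33.2 (change -1.70 ± 0.12 SE; limma adjusted p = 9.73e-05). At 110510686 the score went from 82.8 ± 13.2 to 3.38 ± 0.85 (limma adjusted p = 3.00e-05). The base at 110511102 scored 95.2, 44.0 and 93.9 in U87-R, and 0 (not called) and 0.21 with STM2457 (limma adjusted p = 5.56e-05). Apart from the last, these bases lie 12671 to 12779 nt from the annotated 5′ end.

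**Figure D2:**
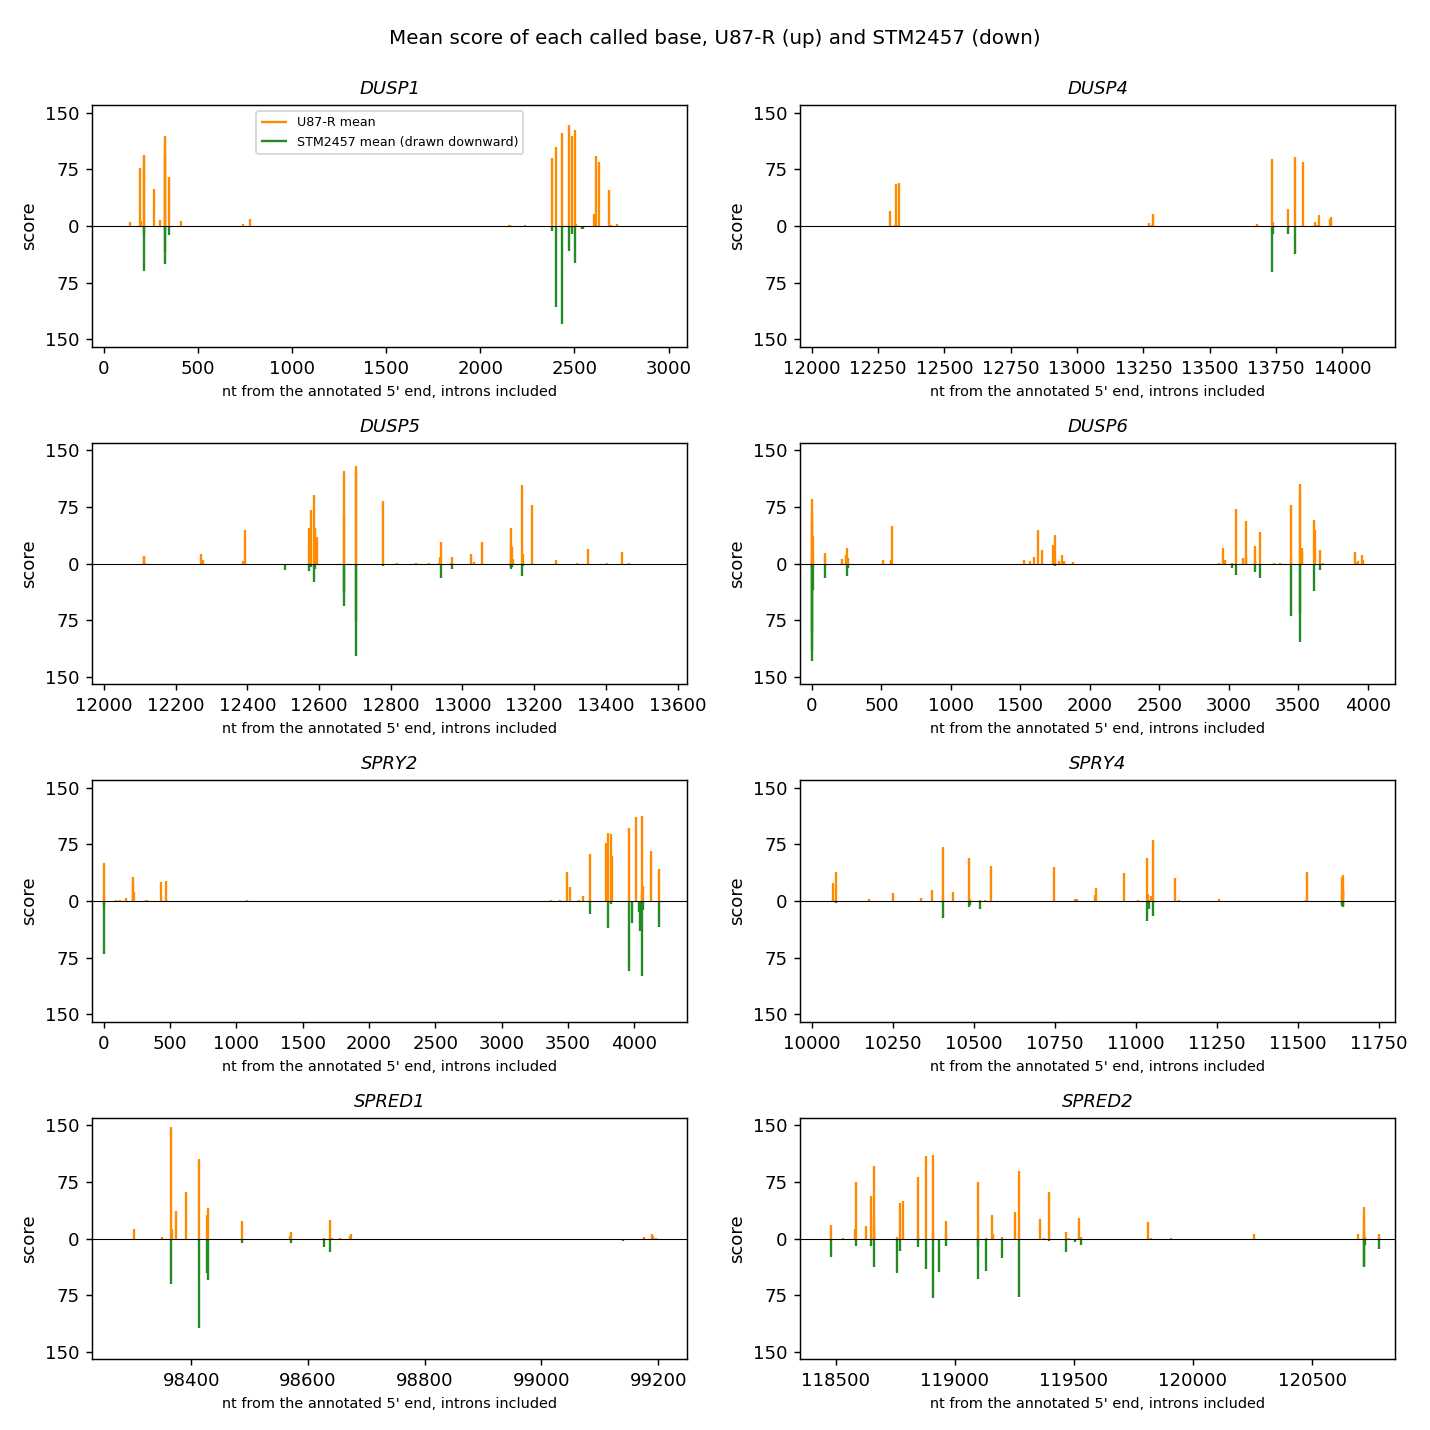
Mean score of each called base against the distance from the annotated 5′ end in nt, with U87-R drawn upward (orange) and STM2457 drawn downward (green), for the stretch of each gene that holds most of its bases. Tall bars without a mirror image stand for bases not called with STM2457, and tall pairs for bases such as 110510610 in DUSP5 (129 and 122).

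DUSP6, the cytoplasmic phosphatase specific for ERK and a widely used readout of ERK activity, is on chromosome 12 at 89347235 to 89352501 (minus strand). The sum for DUSP6 was 1612, 1334 and 1677 in U87, 1554, 908 and 1379 in U87-R, against 746 and 799 with STM2457. U87-R replicate 2 was again the low library of its group and lay just above the STM2457 libraries. With STM2457 it changed by -0.69 ± 0.22 (SE; limma adjusted p = 0.0311), and between the lines by -0.30 (limma adjusted p = 0.607), or by -0.07 without U87-R replicate 2 and -0.45 without U87-R replicate 1. This call was the least firm of the 8: leaving out any 1 of U87-R replicate 1, U87-R replicate 3, STM2457 replicate 1 or STM2457 replicate 2 gave limma adjusted p values of 0.0839, 0.0904, 0.189 and 0.133.

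Bases at the very start of DUSP6 and bases farther in moved in opposite directions. Those less than 50 nt from the annotated 5′ end summed to 243, 214 and 239 in U87, 271, 221 and 287 in U87-R, against 356 and 398 with STM2457, where they were highest. They made up 14.2% to 16.0% of the sum in U87, 17.4% to 24.3% in U87-R, and 47.7% and 49.8% with STM2457. With them left out in every gene, an alternative chosen after seeing the data, DUSP6 fell by 1.32 on the log2 scale (SE 0.25; limma adjusted p = 0.00218), and the median over all genes was then -1.14. The sequence at the start is shown because the bases that rose lie in it. SPRY2, which also has bases at its start called in every library, is set beside it. Capitals mark bases called in all 8 libraries, written as DNA on the gene's strand from RefSeq (GRCh38.p14).
DUSP6 start, chr12:89352487-89352511, minus strand: cgctgtttgTAtcCATtgaggagct
SPRY2 start, chr13:80341114-80341138, minus strand: tccacaacgccCAGtctgcaccgcc
SPRY2, upstream of the annotated start, chr13:80341297-80341321, minus strand: ccacatgacgccAtttactgctgcc

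The second capital of the DUSP6 line, an A, is the annotated first base of the gene at 89352501. It scored 63.9, 59.6 and 62.7 in U87, 68.3, 70.6 and 71.0 in U87-R, against 111 and 119 with STM2457. The STM2457 libraries were above all others, a change of 0.71 ± 0.10 on the log2(score + 1) scale (SE; limma adjusted p = 0.00192). The A at 89352497, 4 nt further in, scored 86.8, 88.1 and 80.8 in U87-R against 130 and 128 with STM2457, and rose by 0.59 ± 0.12 (SE; limma adjusted p = 0.00895). Between them, 89352498 scored 63.0, 35.2 and 67.8 in U87-R against 93.2 and 89.1 with STM2457, which did not pass (limma adjusted p = 0.1, and 0.0427 with the replicate block). As background, antibodies to m6A also bind m6Am, a form with a further methyl group on the ribose that sits next to the cap at the start of many messages and is written by PCIF1 and not by METTL3. Which modification these bases carry was not tested. Of 43474 called bases in annotated start windows of all genes, 45.3% were an A.

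Away from the start, 12 DUSP6 bases were called lower. The base at 89351927, 574 nt from the 5′ end, scored 51.0, 54.4 and 45.0 in U87-R and was not called with STM2457 (limma adjusted p = 3.08e-05). Likewise 89350873 scored 42.5, 42.7 and 48.7 in U87-R and was not called after treatment (limma adjusted p = 3.61e-05). At 3511 nt from the start, 89348990 scored 105, 77.2 and 99.4 in U87-R against 105 and 103 under STM2457 (limma adjusted p = 0.446). Its neighbour 89348989 scored 98.0, 106 and 110 against 39.1 and 92.9, and the STM2457 libraries differed from each other more than any U87-R pair (limma adjusted p = 0.116).

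**Figure D3:**
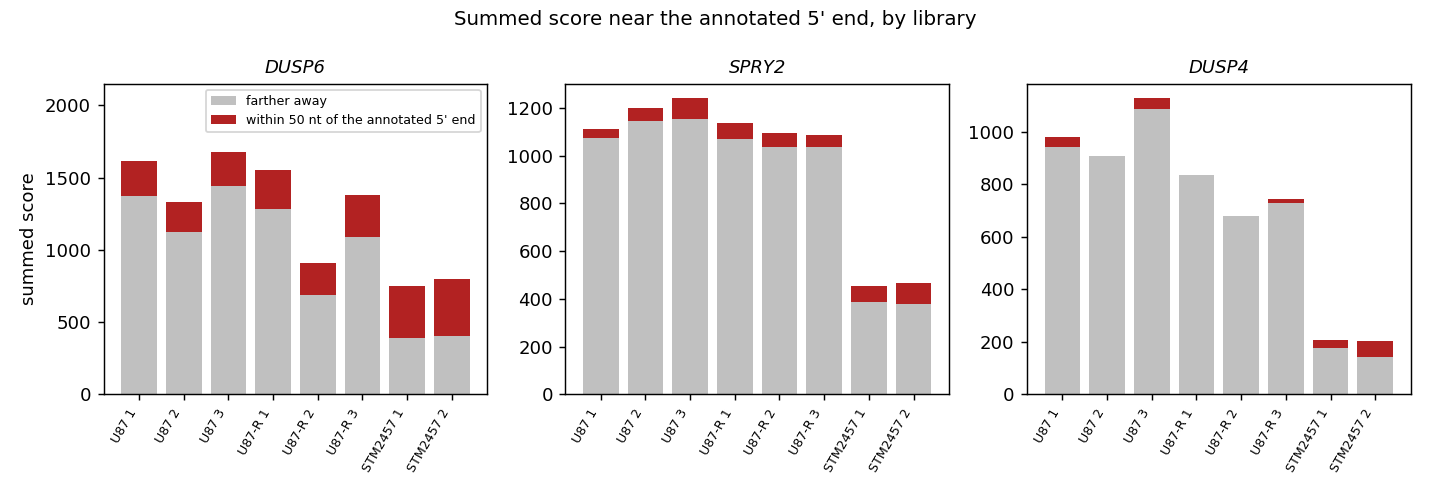
Summed score per library in DUSP6, SPRY2 and DUSP4, split into the first 50 nt after the annotated 5′ end (red) and the rest (grey). In DUSP6 the red part is 356 and 398 in the STM2457 libraries and 214 to 287 in the untreated ones, while the grey part is lowest with STM2457.

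SPRY2, a Sprouty protein that dampens receptor signalling at the level of RAS, is on chromosome 13 at 80335976 to 80341126 (minus strand). In SPRY2 the summed score was 1112, 1200 and 1240 in U87, 1138, 1095 and 1086 in U87-R, against 455 and 465 with STM2457. The lines overlapped and the STM2457 libraries were far below both. Its change with STM2457 was -1.27 ± 0.11 (SE; limma adjusted p = 0.000106), and between the lines -0.10 (limma adjusted p = 0.773). At the start, the A at 80341126 scored 57.2, 45.4 and 47.0 in U87-R against 66.2 and 73.4 with STM2457, a difference that did not pass (limma adjusted p = 0.237). Its start bases made up 4.55% to 5.99% of the sum in U87-R and 15.0% and 18.6% with STM2457. The A in the upstream line, at 80341309, is 183 nt before the annotated start and so outside the gene's span. It was called in every library but entered no sum.

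Lost and kept bases alternated in SPRY2 between 3959 and 4124 nt from its 5′ end. The base at 80337167 scored 87.5, 108 and 96.3 in U87-R against 89.9 and 95.7 under STM2457 (limma adjusted p = 0.725), and the base at 80337065 scored 103, 120 and 113 against 99.1 and 98.1 (limma adjusted p = 0.206). Between these 2 kept bases lies 80337113, which scored 99.9, 121 and 112 in U87-R and was called in neither STM2457 library (limma adjusted p = 4.93e-06). Past them, 80337002 scored 79.9, 61.9 and 54.9 and was likewise not called (limma adjusted p = 1.90e-05). In the same stretch 2 bases appeared with STM2457 and were listed in none of the 6 untreated libraries. They were 80337144, at 15.8 and 42.5 (limma adjusted p = 0.00141), and 80337086, at 45.6 and 34.0 (limma adjusted p = 0.000703). Both entered the test only through their STM2457 calls, with 0 filled in elsewhere. Their p-values are therefore no separate support for a gain. Of the 16 SPRY2 bases that scored 10 or more in every U87-R library, 9 were absent from both STM2457 libraries.

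SPRY4, the second Sprouty gene, is on chromosome 5 at 142310430 to 142325021 (minus strand). The sum for SPRY4 was 586, 717 and 569 in U87, 1112, 619 and 834 in U87-R, against 149 and 192 with STM2457. The 3 U87-R libraries were spread widely and overlapped U87, and STM2457 was lowest. The change with STM2457 was -2.29 ± 0.25 (SE; limma adjusted p = 0.000206). Between the lines it was 0.42 ± 0.22, the largest upward value of the 8, and did not pass (limma adjusted p = 0.49). It was 0.21 without U87-R replicate 1 and 0.63 without U87-R replicate 2.

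The highest SPRY4 base, 142313970, scored 26.1, 61.4 and 43.9 in U87, 89.8, 80.4 and 71.2 in U87-R, against 22.6 and 17.2 with STM2457. U87-R was above the other groups at this base, which was chosen for its high U87-R mean. With STM2457 it changed by -1.97 ± 0.34 (SE; limma adjusted p = 0.00502), and between the lines 0.94 ± 0.31 (limma adjusted p = 0.428). The bases 142314616 and 142314535 went from 71.6 ± 25.1 to 22.1 ± 3.11 and from 57.5 ± 4.15 to 8.55 ± 0.18 (SD, n = 3 and 2; limma adjusted p = 0.01 and 0.00879). Near the floor were 142314273, from 45.3 ± 7.69 to 0.90 ± 1.28 (limma adjusted p = 0.000474), and 142313495, from 37.9 ± 14.3 to 0.40 ± 0.56 (limma adjusted p = 0.00052). Of the 2 SPRY4 bases that rose, 142325019, 2 nt from the 5′ end, was called in no U87-R library and scored 31.8 and 11.8 with STM2457 (limma adjusted p = 0.0296, and 0.0895 with the replicate block). It had also scored 8.80 in 1 U87 library. The other, 142313982, was called in 1 untreated library, at 2.52 in U87-R replicate 2. It scored 5.02 and 15.5 with STM2457 (limma adjusted p = 0.0434, and 0.0822 with the replicate block). Both of these bases entered the test only through their STM2457 calls.

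SPRED1, which brings the RAS inhibitor neurofibromin to the membrane, is on chromosome 15 at 38252836 to 38357249 (plus strand). For SPRED1 the summed score was 517, 546 and 519 in U87, 702, 495 and 509 in U87-R, against 317 and 351 with STM2457. U87-R replicate 1 was the high library, the lines overlapped, and STM2457 was lowest. Its change with STM2457 was -0.75 ± 0.18 (SE; limma adjusted p = 0.00882). Without STM2457 replicate 1 the limma adjusted p was 0.071. Between the lines the change was 0.09 (limma adjusted p = 0.881). The highest base, 38351201, went from 146, 157 and 139 in U87-R to 46.6 and 74.8 with STM2457, a change of -1.30 ± 0.18 (SE; limma adjusted p = 0.00169). The base downstream, 38351249, scored 105 ± 23.6 (SD, n = 3) against 118 ± 17.7 (SD, n = 2) (limma adjusted p = 0.586). Between them, 38351227 scored 63.7, 72.8 and 47.9 and was not called with STM2457 (limma adjusted p = 0.0307). Upstream, 38351138 scored 10.6, 17.0 and 9.45 and was also lost (limma adjusted p = 0.00169).

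SPRED2, the close relative of SPRED1, is on chromosome 2 at 65307175 to 65432599 (minus strand). For SPRED2 the summed score was 1223, 1274 and 1513 in U87, 1513, 1006 and 1410 in U87-R, against 793 and 763 with STM2457. The lines overlapped, U87-R replicate 2 lay below every U87 library, and STM2457 was lowest. The change with STM2457 was -0.73 ± 0.19 (SE; limma adjusted p = 0.0124). With STM2457 replicate 1 or 2 left out it had a limma adjusted p of 0.0819 or 0.0954. Between the lines the change was -0.05 (limma adjusted p = 0.958).

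Both falls and gains were called in SPRED2. The base at 65313691 went from 111 ± 10.6 (SD, n = 3) to 78.1 ± 2.76 (SD, n = 2; limma adjusted p = 0.0143), 65313718 from 109 ± 9.79 to 40.6 ± 21.1 (limma adjusted p = 0.00667) and 65313940 from 96.1 ± 6.71 to 37.5 ± 4.46 (limma adjusted p = 0.0003). The base at 65313817 scored 55.1, 25.1 and 70.4 in U87-R and was not called with STM2457 (limma adjusted p = 0.000189). In the same stretch 4 bases that were not called or low in the U87-R libraries (at most 6.15) rose with STM2457: 65313841 to 48.3 and 44.2, 65313664 to 36.1 and 52.2, 65313468 to 62.5 and 23.7, and 65313402 to 33.6 and 19.2. Their limma adjusted p values were 0.0169, 0.0142, 0.0116 and 0.0332, the last of which was 0.0742 with the replicate block. All but 65313402 entered the test only through their STM2457 calls.

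**Figure D4:**
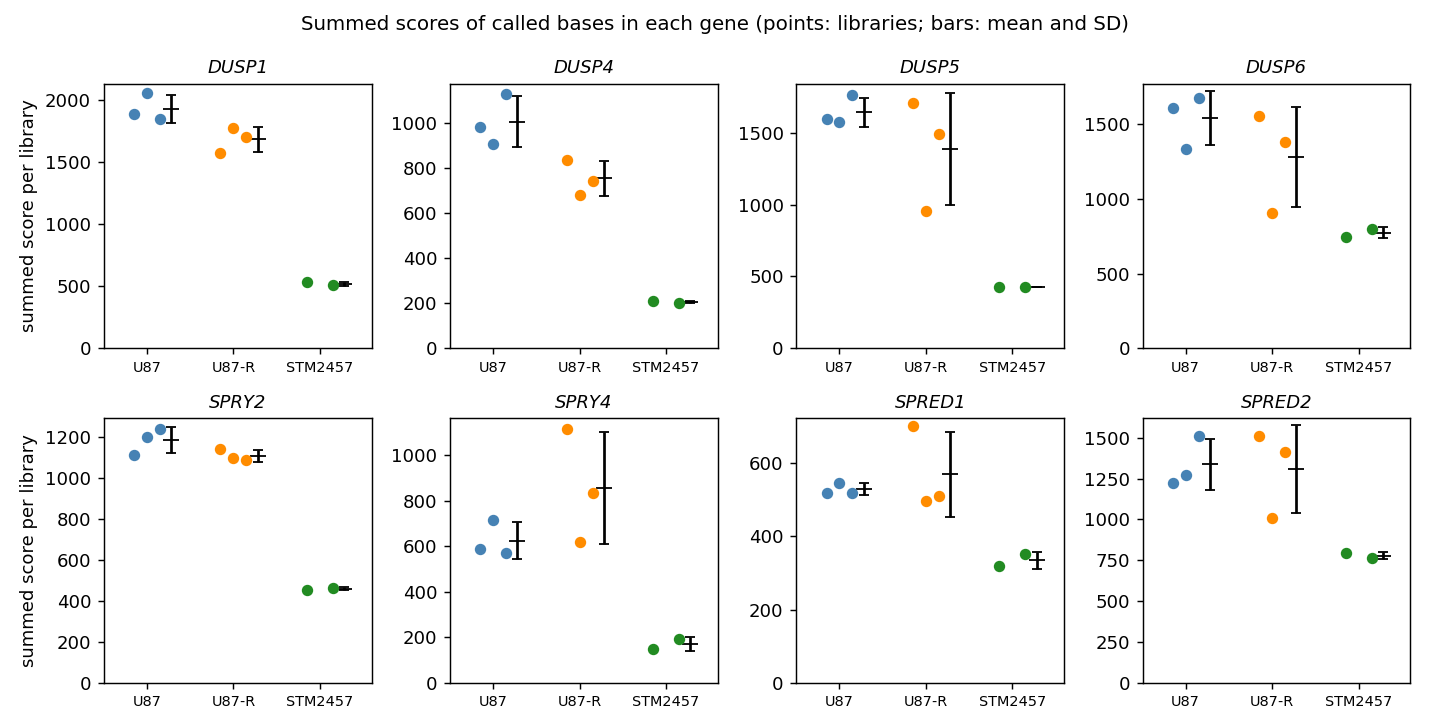
Summed score of each gene in each library (points) with the mean and SD of each group beside them, 3 libraries of U87, 3 of U87-R and 2 with STM2457, each panel on its own axis from 0. The STM2457 points lie below every U87-R point in all 8 panels, and the U87-R points run from 957 to 1711 in DUSP5 and from 619 to 1112 in SPRY4.

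Counted over single bases, 329 of the 585 were tested, which took a call in 2 or more libraries of 1 group. With STM2457, 89 of them were lower (27.1%) and 10 were higher (3.04%). Of all 188742 tested bases 16.9% were lower and 6.65% were higher. These shares were not matched for score. Among bases strong in U87-R, 26.7% of those in the 8 genes and 27.7% over all genes were absent with STM2457. DUSP1 and DUSP5 had 14 lower and none higher. SPRED2 had 12 lower and 4 higher, and DUSP6, SPRY2 and SPRY4 had 2 higher each. Apart from those of DUSP6 and 65313402 in SPRED2, the higher bases entered the test only through their STM2457 calls. Of the 10 higher bases, those of DUSP6 passed under all 12 alternatives. Those of SPRY2 did as well, but they were listed in no untreated library. Every alternative thus compared them with filled-in values, so these passes are no separate support for a gain. The other 6 of the 10 did not pass under all 12. Only 5 remained called when either STM2457 library was left out.

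The bases that were strong in U87-R split into lost and kept ones in every gene. Of 105 bases that scored 10 or more in each of the U87-R libraries, 28 (26.7%) were called in neither STM2457 library, 45 (42.9%) still scored at least 10 in both, and 32 were in between. Over all genes, of 43105 such bases, 27.7% were absent and 44.9% were kept. DUSP6 kept 10 of 15 and SPRED1 4 of 6, while SPRY4 kept 3 of 13 and DUSP4 2 of 7. All 5 strong member bases in the first 50 nt were kept, and over all genes 92.9% of the strong bases there were kept and 1.02% were absent. These shares are descriptions, and their differences between genes were not tested.

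**Figure D5:**
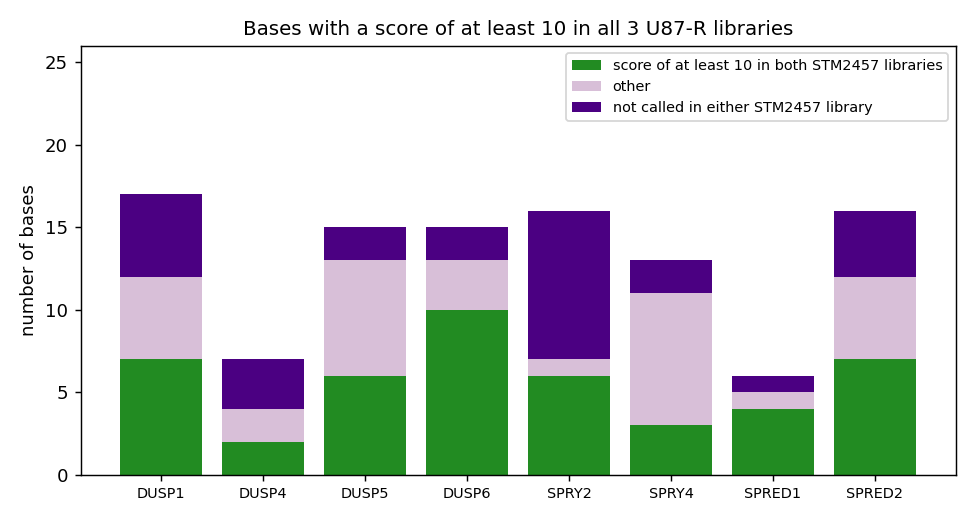
Number of bases in each gene that scored 10 or more in each U87-R library, split by whether they scored at least 10 in both STM2457 libraries (green), were called in neither (dark purple), or were in between (light purple). SPRY2 has the most lost bases (9 of 16) and DUSP6 the most kept ones (10 of 15).

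The 8 genes together held called bases numbering 283, 310 and 334 in U87, 303, 251 and 287 in U87-R, against 150 and 157 with STM2457. The STM2457 libraries lay below the others. The mean was 280 ± 26.6 (SD, n = 3) in U87-R and 154 ± 4.95 (SD, n = 2) with STM2457, with a two-sided exact permutation p of 0.1, the smallest this design can give. They made up 0.1813% to 0.1885% of the called bases of a U87 library, 0.157% to 0.168% in U87-R and 0.142% in each STM2457 library. The shares of the lines did not overlap. The mean share differed by -0.0198 percentage points between the lines and by -0.0228 with STM2457 (exact permutation p = 0.1 for both). For the number of called bases the exact permutation p between the lines was 0.3.

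Between the lines no difference passed in these genes. None of the 8 was called between the lines by limma, where 1.29% of all tested genes were called, and 1 (DUSP4) had an unadjusted p under 0.05. The libraries of the lines did not overlap in 2 of the 8 (DUSP1 and DUSP4), and in 16.1% of all tested genes. At single bases 0 of 329 passed, where 0.000530% of all tested bases did, and 35 (10.6%) had an unadjusted p under 0.05, against 11.0% of all tested bases. The point estimates were negative for all 4 DUSP genes, SPRY2 and SPRED2, and positive for SPRY4 and SPRED1. Under both scalings that of SPRED1 turned negative. U87-R replicate 2, which had the fewest called bases of its group, had the lowest sum of its group in 6 of the 8 genes. Without it, 2 bases were called between the lines, 29350476 in DUSP4 (lower in U87-R; limma adjusted p = 0.0364) and 65313440 in SPRED2 (higher; limma adjusted p = 0.0364), where 2.11% of all tested bases were called. A p that misses the threshold does not show that the lines are alike.

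In the authors' deposited lists of reproducible sites, which join the libraries of a group and so have no replicate error, the 8 genes held 87 sites in U87, 87 in U87-R and 28 with STM2457. The lines shared 77 of the authors' deposited sites. In the authors' deposited lists 26 of the U87-R sites were also STM2457 sites, which is 29.9% of the U87-R list and 92.9% of the STM2457 list. SPRY4 had 19 sites in U87-R and 2 with STM2457 in the authors' deposited tables, and DUSP5 had 8 and 4. The single STM2457 site of the authors' deposited lists found in neither line's list was in DUSP6. In the authors' deposited peak lists the genes held 285, 262 and 99 peaks, and 71.4% of the U87-R peaks overlapped an STM2457 peak by at least 1 base. The same counts and shares over all listed sites and peaks were not analysed here. These values therefore cannot be read as particular to the 8 genes. The lists join 3 libraries of each line but 2 with STM2457.

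Other genes of the pathway were read from lists by role. Of the other MAPK phosphatases and Sprouty or SPRED relatives, 4 of 7 tested were called lower with STM2457 and none higher. The 7 had a median change of -1.26. DUSP8, a phosphatase of JNK and p38, went from 88.1 ± 31.0 to 3.38 ± 4.66, SPRED3 from 326 ± 67.5 to 126 ± 11.1, and DUSP3 from 819 ± 148 to 337 ± 9.90 (SD, n = 3 and 2; limma adjusted p = 0.00181, 0.00113 and 0.000625). Of receptor adaptors and RAS regulators 10 of 14 were called lower (median -1.37). Among them were LRIG1, a receptor inhibitor, which changed by -2.13 ± 0.25, RASAL2, a RAS GTPase activator (-1.76 ± 0.30), and the adaptor FRS2 (-1.67 ± 0.42; SE; limma adjusted p = 0.000301, 0.00179 and 0.0115).

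In the list from RAS to ERK, the core of the pathway, 4 of 14 were called lower and 0 higher. The median change was 0.17. ARAF changed by -1.20 ± 0.26 and HRAS by -1.01 ± 0.30 (SE; limma adjusted p = 0.00549 and 0.025). In the JNK and p38 branch 6 of 12 were called lower (median -0.58). MAPK11 was at -2.11, MAP2K3 at -1.82 and MAP2K4 at -1.34 (limma adjusted p = 0.000586, 0.000174 and 0.00117). Of 15 ERK-induced genes 11 were called lower (median -1.29). HBEGF, a growth factor of the EGF family, went from 834 ± 113 to 128 ± 48.6, IER3 from 2028 ± 111 to 526 ± 17.7, and ETV4, a transcription factor, from 140 ± 20.0 to 43.8 ± 29.7 (SD, n = 3 and 2; limma adjusted p = 7.71e-05, 3.01e-05 and 0.00924). No gene of the 5 lists was called between the lines. These counts, made without scaling between libraries, stand beside the 38.2% of all genes called lower and were not tested as sets.

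The genes whose sums followed the 8 most closely over the 8 libraries were ENC1 (Pearson r = 0.998), WTAP (0.998), VPS37D (0.998), PTPN12 (0.997) and FBXW11 (0.997). WTAP is itself a subunit of the m6A methyltransferase complex, and its summed score was 1106 in U87, 1046 in U87-R and 432 with STM2457 on average. The likeness is a description over libraries that share the same 3 groups, and VPS37D and FBXW11 were listed at 0 in both STM2457 libraries.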

How the data were processed

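m6A-eCLIP libraries (3 U87, 3 U87-R, 2 STM2457) were read as lists of called bases. The authors deposited a score per base. For its formula and scaling: not given in the sources used here. Group lists deposited by the authors for sites and peaks also carry a fraction, the share of libraries behind each entry. UMI-tools, cutadapt and STAR on hg38 were used per the submitters' processing notes.

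Called bases were given to genes by position and strand (RefSeq, GRCh38.p14, which shares hg38 coordinates). Strands came from the RefSeq promoter table for 27174 genes and from the called bases for 1803; they differed in 207 of the 8438 genes with both. DUSP4 and DUSP5, absent from that table, got their known strands. The 161 readthrough loci were left out, among them one over DUSP6, and 396136 bases (87.6%) went to 1 gene. Exons and UTRs were not analysed here.

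Scores were summed per gene and library, and limma 3.58.1 under R 4.3.3 was fitted to log2(sum + 1) with a trended variance and 3 group means over 8 libraries. The 10578 genes reaching a sum of 10 in 2 or more libraries were tested and their p-values adjusted after Benjamini and Hochberg. Single bases were fitted as log2(score + 1), unlisted bases as 0. Calls had an adjusted p under 0.05. No scaling between libraries was applied. The fits were tested on simulated data with changes set between STM2457 and U87-R. At a true log2 change of -1, 12.0% of changed genes and 0.76% of changed bases were called. At -2 it was 52.0% and 6.69%, so many changes of this size were missed in the simulation. It changed 50 genes at each size, of low and high sums alike, whereas 4036 genes were called lower in the data. These shares therefore do not say how often such changes are found in the 8 genes. Changes between the lines were not simulated. Replicates shared 63775 to 109197 bases with at most 2 equal scores, so none was a copy. Alternatives were another pseudocount, filters, scaling, the replicate block and leaving out each library.

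Named bases are, per gene, the 3 with the highest U87-R mean among those called in all 3 libraries and the 2 with the smallest adjusted p; the text says where others were chosen after seeing values, and all 10 bases called higher were added in the same way. From each pathway list up to 3 genes per direction with the largest called change were named; 2 genes of the lists are not reported here. The 8 genes and all lists were chosen with earlier results of these data known.

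Same-numbered U87 and U87-R libraries deviated from their group means with weak correlations of 0.102, 0.317 and 0.114 over genes. Replicates 1 and 3 correlated more with the other's partner. Same-numbered U87-R and STM2457 libraries did not deviate together (-0.021 and -0.021). The labels do not say what a replicate number shares. The main fits and the permutation tests were therefore unpaired, and replicate numbers entered only as the block alternative.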

Additional observations from a re-analysis of the deposited data

How the results depend on the processing

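With libraries centred on their medians or scaled to their totals, 5 and 5 of the 8 genes were lower with STM2457 instead of 8, and over all genes the split of 4036 lower and 663 higher became 2562 and 1628, or 2502 and 1695, with the median change at -0.12 and -0.10. Leaving out single libraries gave 5 to 8 genes, with 5 without STM2457 replicate 1; a lone treated library is then assumed to vary like the other groups. DUSP1, DUSP4, DUSP5, SPRY2 and SPRY4 were called under all 18 alternatives, whereas DUSP6 lost its call in 8, SPRED2 in 6 and SPRED1 in 3. With the replicate block, 8 genes were lower with STM2457 and 0 were called between the lines. At single bases 81 were lower instead of 89, while 7 of the 10 higher bases were still called. With that block 3490 of all 10578 tested genes and 25490 of all 188742 tested bases were lower with STM2457. Between the lines 16 of all genes were then lower and 52 higher. Of bases between the lines, 3 were called when only bases called in every library of a group were tested (2 in DUSP4 and 1 in SPRY2, all lower in U87-R; 2.16% of all bases so tested were called), and 0 to 2 with single libraries left out. Of the changes between the lines, that of SPRED1 (0.09) turned to -0.070 with median centring, -0.0073 with scaling to totals and -0.172 from numbers of bases, and ranged from -0.071 to 0.18 over single libraries left out, negative without U87-R replicate 1. That of SPRED2 (-0.05) ranged from -0.16 to 0.134 in the same way, turning positive at 0.047 when U87 replicate 3 was dropped and at 0.134 when U87-R replicate 2 was; none passed. Unknown depth limits all values, and an unlisted base gives no upper bound. The cause of these shifts was not tested.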
